A study of Homo sapiens and Mus musculus with 33 samples.

Results

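The p53 target genes described here are 35 genes that p53 is known to switch on, chosen by name from textbook knowledge of the pathway and grouped by role. All 35 were found among the 35805 genes of the HCT116 RNA table, where TIGAR stands under its older name C12orf5, and 31 of them among the 25965 genes of the colon RNA table. The members comprised 6 feedback regulators, 12 genes of death receptors and apoptosis, 7 of growth arrest, 5 of DNA repair and nucleotide supply, and 5 of metabolism, redox and mitochondria. A region counted as a member's peak when it lay in the gene or within 2 kb of it, which gave 58 of the 40266 HCT116 regions.

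p53 is a transcription factor that the ubiquitin ligase MDM2 keeps at a low level in unstressed cells and that accumulates after DNA damage. It binds pairs of 10-base half-sites and raises genes that halt the cell cycle, repair DNA, start apoptosis and, through MDM2 and other feedback genes, limit p53 itself. HCT116 is a human colon carcinoma line. In the gut, p53 targets are best known from the response of crypt cells to irradiation. Crotonylation and acetylation of lysine 18 of histone H3 (H3K18cr and H3K18ac) are marks of active promoters and enhancers, are placed by p300 and CBP, and are removed by class I histone deacetylases. MS275 (entinostat) inhibits these deacetylases.

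HCT116 cells received MS275 at 5 µM or the solvent DMSO for 18 h, with no other agent or altered allele in the labels. RNA-seq gave 4 libraries numbered 1 to 4 per treatment, and ChIP-seq of H3K18cr and of H3K18ac gave 3 libraries per treatment and mark beside 1 input library per treatment. Epithelium of the colon of untreated C57BL/6 mice, male by the methods and of an age not given in the sources used here, gave 2 H3K18cr libraries with 2 inputs, 3 H3K4me3 libraries with 1 input, and 3 RNA libraries. By the methods, ChIP chromatin came from 3 pooled colons and RNA from 3 mice. HCT116 is 1 line, so its libraries sample 1 genotype. The methods call the HCT116 RNA replicates biological, without saying what was separate between them. For the ChIP-seq replicates of HCT116 the labels do not say whether they were separate cultures. The methods give 2 replicates for HCT116 H3K18cr, where the labels hold 3 libraries per treatment. They also name 2 biological replicates per experiment in a section shared by HCT116 ChIP-seq and ChIP-qPCR. The ChIP-seq p-values therefore measure the spread between these libraries, which may be technical.

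HCT116 RNA libraries held 35608533 to 53415604 counts and colon RNA libraries 8166406 to 10707901. Reads in peaks, scaled by the authors to the largest library, came to 4946120 to 5730090 in the H3K18cr libraries with DMSO against 3902020 to 4338120 with MS275. For H3K18ac they came to 4462390 to 6594160 (DMSO replicate 3 the highest) against 3612600 to 4531230. Epithelial markers (5 of 7 at 1 CPM or more with DMSO and 6 with MS275) summed to 2700 to 3902 CPM (in HCT116, counts scaled to the library total times its TMM factor, and in colon to the library total alone) with DMSO and 3387 to 4345 with MS275 in HCT116. Immune markers summed to 6.34 to 8.82 and 4.91 to 11.7 CPM, with CD3E at 0 in every DMSO library. Stromal markers, 3 of 6 at 1 CPM or more, summed to 11.1 to 14.0 CPM with DMSO and to 20.1 to 24.6 with MS275, with PDGFRA at 0 in every DMSO library. In colon the 7 epithelial markers summed to 6039 to 7136 CPM, the immune ones to 25.1 to 41.6 and the stromal ones to 22.3 to 26.8, with Pdgfra at 0. The part of stromal transcripts in the RNA results below was not tested.

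The p53 half-site consensus was searched in the RefSeq sequence (GRCh38) on both strands, 2000 bases either side of the start of every gene with a RefSeq start, as 2 half-sites of 10 bases up to 13 bases apart, with at most 2 mismatches in 20 bases and none in the core of either half-site. Of the 26 members with a RefSeq start, 13 (50%) held such a match, against 5713 of 27305 genes (20.9%). With at most 1 mismatch, 5 of 26 (19.2%) held one against 4.41% of genes. A match in 12 of the 13 members lay inside an HCT116 peak, the exception being SPATA18, which had no peak. As 34 members had a peak, this count is not a trait of the matches. The share inside a peak among all genes with a match was not computed. A match is a run of letters and not a bound site. The sites below are matches to the consensus at members whose promoter peaks or RNA are described further on. Capitals mark the 2 half-sites, and lower case the bases between and around them, 5′ to 3′ on the strand of the match.
TIGAR site: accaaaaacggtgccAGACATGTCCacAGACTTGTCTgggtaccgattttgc
ZMAT3 site: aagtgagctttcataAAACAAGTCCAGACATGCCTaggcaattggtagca
CCNG1 site: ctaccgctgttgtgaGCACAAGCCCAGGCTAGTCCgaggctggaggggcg
TRIAP1 site: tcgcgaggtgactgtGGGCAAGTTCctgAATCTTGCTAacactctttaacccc
SESN1 site: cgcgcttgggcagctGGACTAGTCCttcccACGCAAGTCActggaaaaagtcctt
PERP site: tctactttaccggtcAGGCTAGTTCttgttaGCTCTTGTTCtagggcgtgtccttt
GDF15 site: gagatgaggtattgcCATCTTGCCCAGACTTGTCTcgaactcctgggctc
DDB2 site: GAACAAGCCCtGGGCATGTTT

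TIGAR and ZMAT3 carried sites with 0 mismatches, both in an intron, at chr12:4321600-4321651 (+ strand) and chr3:179070173-179070222 (- strand). The CCNG1 site at chr5:163437911-163437960 (+ strand) had 1 mismatch and was intronic. The TRIAP1 site at chr12:120446914-120446966 (- strand) and the SESN1 site at chr6:109095684-109095738 (- strand) lay outside their genes and had 2 mismatches each. Those of PERP at chr6:138106546-138106601 (- strand) and GDF15 at chr19:18385293-18385342 (+ strand) had 2 mismatches and were intronic. The DDB2 site at chr11:47214979-47214999 (+ strand) had 0 mismatches and was annotated as UTR. In each of these 8 genes the match lay inside an HCT116 peak, which at ZMAT3 was not its promoter peak.

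The first comparison asked how transcripts of the members differed between MS275 and DMSO in HCT116. Most members moved little: 33 of 35 had enough counts to be tested, and the median log2 change was −0.05 with the replicate block, against 0.01 over all 14961 genes tested. Without the block (edgeR quasi-likelihood test, Benjamini-Hochberg adjustment), 0 members were called at an adjusted p under 0.05, where 0.00668% of all genes were called. The lowest adjusted p among members was 0.701 and 1 member (TNFRSF10A) had an unadjusted p under 0.05. DESeq2 without the block also called 0 members. Same-numbered libraries tended to deviate together, as did those numbered 2 and 4 across treatments. With the replicate number in the fit as a block, 8 members were called, 4 higher (ZMAT3, CYFIP2, ASCC3 and PERP) and 4 lower (SFN, TRIAP1, TNFRSF10A and TP53I3). That was 24.2% of members tested, where the block called 14.4% of all genes, 7.83% higher and 6.55% lower. DESeq2 with the block called 8 members as well. The edgeR count with the block was 3, 2, 8 and 2 without pair 1, 2, 3 and 4. The 8 without pair 3 were not the same 8: TP53I3 and PERP lost their call, and PLK2 and FDXR gained one. The share of all genes called in these smaller fits is not given here, so the counts cannot be set against a general loss of calls.

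Libraries of bulk cells cannot tell fewer cells with a transcript from less of it per cell. Transcript length moved with treatment in these libraries. With genes in 4 groups of about equal size by exon length, the median deviation of the longest group minus that of the shortest was higher with MS275 than with DMSO in each of the 4 pairs, by 0.29, 0.13, 0.09 and 0.21 on the log2 scale. The median log2 change with the block ran from −0.09 in the shortest group to 0.10 in the longest. The 4 members called higher had 11298 (ZMAT3), 10564 (CYFIP2), 11731 (ASCC3) and 4198 (PERP) bases of annotated exons, and the 4 called lower had 1308 (SFN), 1411 (TRIAP1), 2927 (TNFRSF10A) and 2312 (TP53I3). A fit with the block and a length correction, added after seeing the data, called 8 members, 1 higher and 7 lower, among 18.5% of all genes (5.08% higher and 13.5% lower). It kept 5 calls (ZMAT3, SFN, TRIAP1, TNFRSF10A and TP53I3), lost CYFIP2, ASCC3 and PERP, and added AEN, RPS27L and PPM1D.

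**Figure D1:**
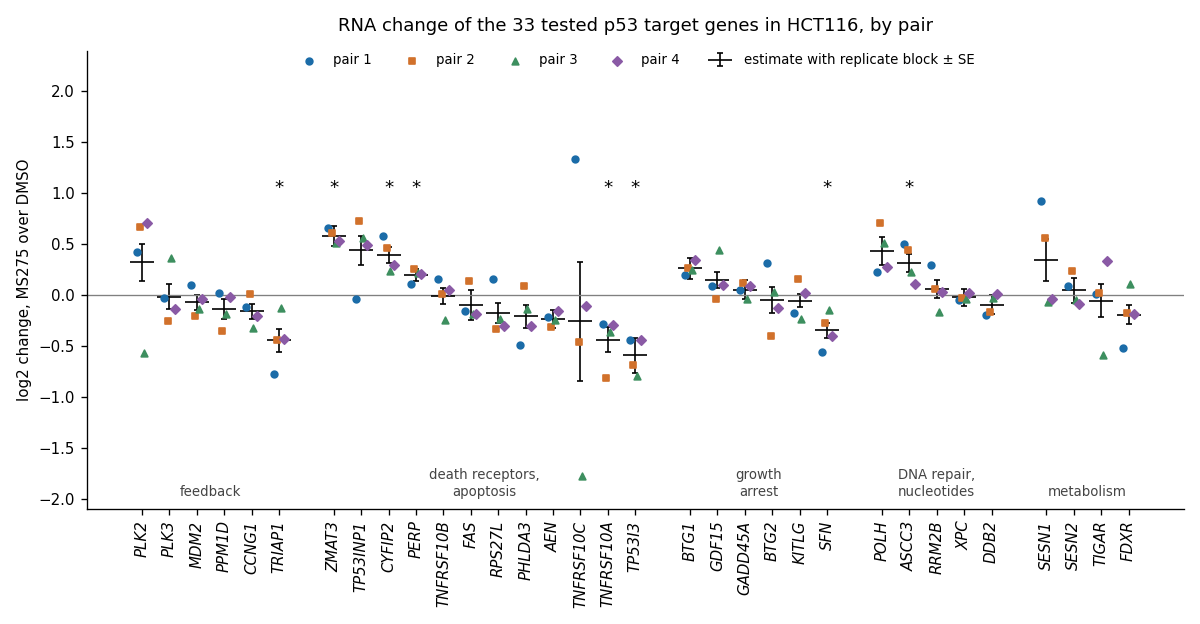
Log2 change (MS275 over DMSO) of the 33 tested p53 target genes in HCT116 RNA, 1 point per pair of same-numbered libraries. 6 members were higher with MS275 in all 4 pairs, where 19.2% of all genes were, and 5 were lower in all 4 pairs, where 17.5% of all genes were.

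Of the 6 genes grouped as feedback regulators, 1 was called lower with the block and none higher. TRIAP1, a small mitochondrial protein that restrains apoptosis, had 53.3, 42, 57.1 and 37 CPM in DMSO replicates 1 to 4 and 31.2, 30.9, 52.4 and 27.5 CPM in MS275 replicates 1 to 4. All 4 pairs were lower with MS275, and the ranges of the 2 groups overlapped. With the block the log2 change came to −0.44 ± 0.11 (SE; adjusted p = 0.0214), and with the length correction it was −0.42 (adjusted p = 0.0124). It was no longer called without pair 1, 2 or 4 (adjusted p 0.128, 0.0744 and 0.0732). CCNG1, cyclin G1, which recruits a phosphatase to MDM2, was among the 3 most abundant members not called, with 129, 183, 123 and 229 CPM with DMSO and 119, 184, 98.4 and 199 with MS275, a log2 change of −0.16 ± 0.07 (adjusted p = 0.162). Its groups overlapped and 1 of 4 pairs was higher. MDM2 itself stood at 131, 124, 103 and 129.9 CPM with DMSO and 140.0, 108, 93.8 and 126 with MS275, a log2 change of −0.07 ± 0.07 (adjusted p = 0.58). The p53 phosphatase PPM1D had −0.14 ± 0.10 (adjusted p = 0.413) with the block and −0.30 with the length correction, where it was called with an adjusted p just under 0.05. The kinase PLK2 had a log2 change of 0.32 ± 0.18 (adjusted p = 0.266), with 1 of 4 pairs lower (pair 3), and was called only without that pair (0.59, adjusted p = 0.00429). Its relative PLK3 had −0.02 ± 0.13 (adjusted p = 0.953).

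Among the 12 genes of death receptors and apoptosis, 3 were called higher and 2 lower with the block. ZMAT3, an RNA-binding zinc finger protein, had 21.1, 30.9, 21.4 and 41.2 CPM in DMSO replicates 1 to 4 and 33.4, 47.2, 30.6 and 59.5 CPM in MS275 replicates 1 to 4. The groups overlapped, yet MS275 was higher within each of the 4 pairs. In log2 terms it changed with the block by 0.58 ± 0.10 (SE; adjusted p = 0.00293), and with the length correction it was 0.38 (adjusted p = 0.02). The call held with each of the 4 pairs left out. CYFIP2, a subunit of an actin regulatory complex, had 62.2, 96.4, 83 and 125 CPM in DMSO replicates 1 to 4 and 93.3, 133, 97.8 and 154 CPM in MS275 replicates 1 to 4. Each MS275 library was higher than the DMSO library of its number, while the 2 groups overlapped. The log2 change with the block was 0.40 ± 0.08 (SE; adjusted p = 0.00643), and with the length correction it was 0.21 (adjusted p = 0.101). The call was lost without pair 2 (adjusted p 0.0603).

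PERP, a membrane protein of desmosomes that also acts in apoptosis, had 184, 286, 187 and 272 CPM in DMSO replicates 1 to 4 and 199, 340.3, 218 and 313 CPM in MS275 replicates 1 to 4. All 4 pairs were higher with MS275, and the ranges of the 2 groups overlapped. With the block the log2 change came to 0.20 ± 0.06 (SE; adjusted p = 0.0464), and with the length correction it was 0.12 (adjusted p = 0.223). The call was lost without any 1 of the 4 pairs (adjusted p 0.0625 to 0.214). TNFRSF10A, a receptor of the death ligand TRAIL, had 40.8, 40.0, 33.4 and 32.5 CPM in DMSO replicates 1 to 4 and 33.5, 22.7, 26 and 26.5 CPM in MS275 replicates 1 to 4. The groups overlapped, yet MS275 was lower within each of the 4 pairs. In log2 terms it changed with the block by −0.44 ± 0.12 (SE; adjusted p = 0.0284), and with the length correction it was −0.48 (adjusted p = 0.017). Its adjusted p rose above 0.05 without pair 1, 2 or 4 (adjusted p 0.0672, 0.118 and 0.0679). TP53I3, a quinone oxidoreductase that generates reactive oxygen, had 6.99, 13.8, 20.9 and 11.5 CPM in DMSO replicates 1 to 4 and 5.14, 8.57, 12 and 8.50 CPM in MS275 replicates 1 to 4. Each MS275 library was lower than the DMSO library of its number, while the 2 groups overlapped. The log2 change with the block was −0.59 ± 0.17 (SE; adjusted p = 0.0339), and with the length correction it was −0.61 (adjusted p = 0.0296). The call was lost without any 1 of the 4 pairs (adjusted p 0.0698 to 0.101).

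The other receptors did not pass the test. FAS had a log2 change of −0.10 ± 0.15 (adjusted p = 0.725), the second TRAIL receptor TNFRSF10B −0.01 ± 0.08 (adjusted p = 0.973), and the decoy receptor TNFRSF10C, at 0.781 to 3.18 CPM, −0.26 ± 0.59 (adjusted p = 0.822). TP53INP1, which promotes p53 phosphorylation and autophagy, lay near the threshold at 0.44 ± 0.14 (adjusted p = 0.059), higher in 3 of 4 pairs, and was called without pair 1 (0.60, adjusted p = 0.0308). The exonuclease AEN was lower in all 4 pairs at −0.23 ± 0.09 (adjusted p = 0.0967), and was called with the length correction (−0.34, adjusted p = 0.0214). RPS27L, a ribosomal protein paralogue, had −0.18 ± 0.10 (adjusted p = 0.265) and was called with the length correction (−0.34, adjusted p = 0.0324). That call depends on a length of 8825 bases, from the merged exons of all its annotated transcripts, where the mouse gene has 816. PHLDA3, a repressor of AKT, had −0.21 ± 0.11 (adjusted p = 0.246). Reads of the TRAIL receptors, which resemble each other, could be split by the counting, so TNFRSF10A to TNFRSF10C are uncertain in that respect.

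**Figure D2:**
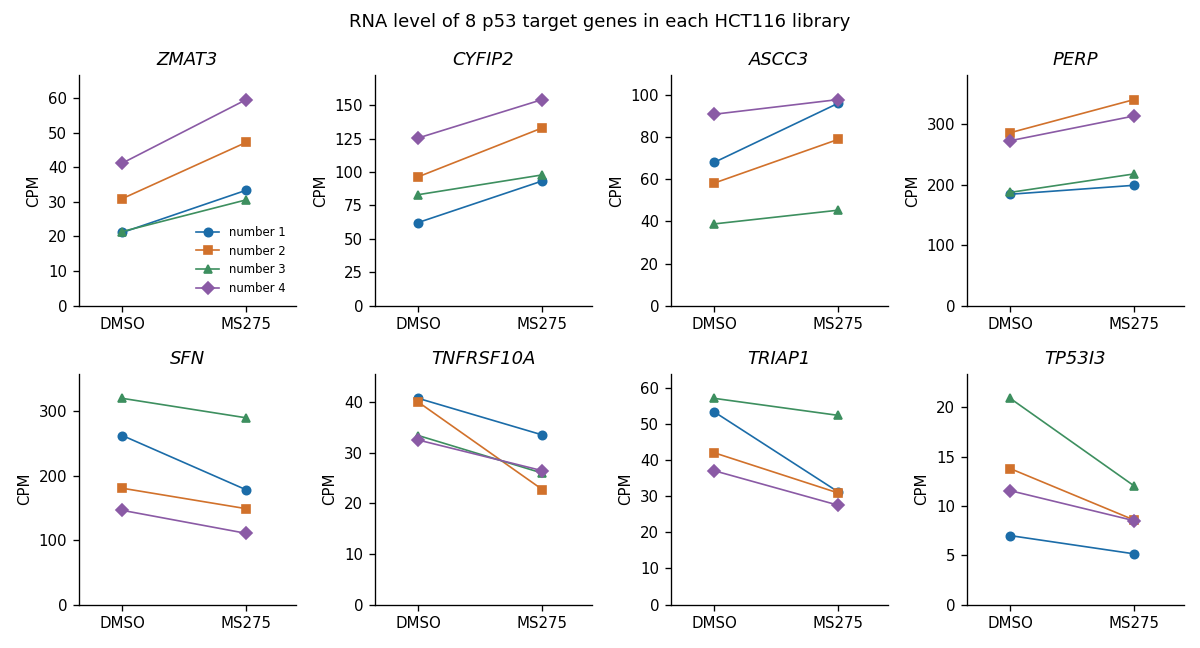
RNA level (CPM, linear axis from 0) of the 8 members called with the replicate block, in each HCT116 library, with lines joining libraries of the same number. Every line rises for ZMAT3, CYFIP2, ASCC3 and PERP and falls for SFN, TRIAP1, TNFRSF10A and TP53I3, while the DMSO and MS275 ranges overlap in all 8.

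Of the 7 genes listed under growth arrest, among them the KIT ligand gene KITLG, 6 were tested, and 1 was called, lower. SFN, 14-3-3σ, which holds cyclin B and CDK1 in the cytoplasm, had 262, 181, 320.1 and 146 CPM in DMSO replicates 1 to 4 and 178, 149, 289.8 and 110.5 CPM in MS275 replicates 1 to 4. All 4 pairs were lower with MS275, and the ranges of the 2 groups overlapped. With the block the log2 change came to −0.35 ± 0.07 (SE; adjusted p = 0.00929), and with the length correction it was −0.32 (adjusted p = 0.00669). It was no longer called without pair 1 or 4 (adjusted p 0.0576 and 0.0512). KITLG, the ligand of the receptor KIT and the most abundant member by CPM, had 1008, 1282, 617 and 1643 CPM with DMSO and 893, 1431, 523 and 1670 with MS275, a log2 change of −0.06 ± 0.07 (adjusted p = 0.616). It was higher in 2 pairs and lower in 2, and DMSO replicate 3 and MS275 replicate 3 were the lowest of their groups. The secreted factor GDF15 had 201, 346, 228 and 295 CPM with DMSO and 214, 337, 309 and 315 with MS275, 0.15 ± 0.08 (adjusted p = 0.229), with overlapping groups and 3 of 4 pairs higher. BTG1 was higher in all 4 pairs at 0.26 ± 0.10 (adjusted p = 0.0983), while its relative BTG2 had −0.05 ± 0.13 (adjusted p = 0.855). GADD45A, which inhibits CDK1, had 0.05 ± 0.09 (adjusted p = 0.762). TRIM22 was under 1 CPM in every library and was not tested.

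Of the 5 genes of DNA repair and nucleotide supply, 1 was called, higher. ASCC3, a helicase that opens DNA for alkylation repair, had 68, 58.2, 38.8 and 90.9 CPM in DMSO replicates 1 to 4 and 96.1, 79, 45.3 and 97.8 CPM in MS275 replicates 1 to 4. The groups overlapped, yet MS275 was higher within each of the 4 pairs. In log2 terms it changed with the block by 0.32 ± 0.09 (SE; adjusted p = 0.0338), and with the length correction it was 0.12 (adjusted p = 0.421). Its adjusted p rose above 0.05 without pair 1, 2 or 4 (adjusted p 0.161, 0.167 and 0.0608). POLH, the polymerase that copies past ultraviolet damage, was higher in all 4 pairs at 0.43 ± 0.14 (adjusted p = 0.0579). XPC and DDB2, which recognise ultraviolet damage, had −0.02 ± 0.08 (adjusted p = 0.888) and −0.09 ± 0.09 (adjusted p = 0.559). RRM2B, a ribonucleotide reductase subunit, had 0.06 ± 0.09 (adjusted p = 0.723).

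None of the 4 tested genes of metabolism, redox and mitochondria was called. The log2 change was 0.35 ± 0.20 (adjusted p = 0.29) for SESN1 and 0.05 ± 0.12 (adjusted p = 0.849) for SESN2, both of which restrain mTORC1. It was −0.06 ± 0.16 (adjusted p = 0.867) for TIGAR, which lowers glycolytic flux, and −0.19 ± 0.10 (adjusted p = 0.208) for the mitochondrial ferredoxin reductase FDXR. Without pair 3, FDXR passed the test (log2 change −0.30, adjusted p = 0.0375). SPATA18, a mitochondrial quality control gene, had 1 count in 1 of the 8 libraries and was not tested.

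By level per length with DMSO (mean CPM per kb of annotated exon, lowest and highest library in parentheses), the order was KITLG 183 (99.4 to 265), SFN 174 (112 to 245), GDF15 128 (96.3 to 166), PERP 55.3 (43.8 to 68), CCNG1 53.6 (39.7 to 74.1) and TRIAP1 33.6 (26.2 to 40.4). The ranges of KITLG, SFN and GDF15 overlapped, as did those of PERP and CCNG1, and the 3 former lay above the latter in every library.

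Genes around the members gave a mixed picture, to be read against the 14.4% of all genes that the block called. Of 21 further p53 targets tested, 7 were called with the block, 5 higher and 2 lower, with a median log2 change of 0.19. CDKN1A, the cell cycle inhibitor p21, had 156, 177, 227 and 199 CPM with DMSO and 205, 210.1, 295 and 215 with MS275, a log2 change of 0.28 ± 0.07 (adjusted p = 0.0167). BBC3, the apoptosis inducer PUMA, had 24.1, 46.6, 33.8 and 36.2 CPM with DMSO and 10.8, 23.8, 25.7 and 29.2 with MS275, a log2 change of −0.70 ± 0.15 (adjusted p = 0.00865). CDKN1A was higher and BBC3 lower in all 4 pairs, and the groups of each overlapped. CDKN1A was no longer called without pair 1 or 2 (adjusted p 0.0785 and 0.0763), nor BBC3 without pair 1 or 2 (adjusted p 0.054 and 0.063). The others called were IER5 at 0.27 ± 0.07 (adjusted p = 0.0192), APAF1 (the apoptosome scaffold) at 0.61 ± 0.17 (adjusted p = 0.0315), TNFRSF10D (a decoy TRAIL receptor) at 0.30 ± 0.08 (adjusted p = 0.0318), FUCA1 (a lysosomal fucosidase) at 0.37 ± 0.11 (adjusted p = 0.0349) and EI24 at −0.26 ± 0.07 (adjusted p = 0.0352). Each of these 5 calls was lost in 3 of the 4 fits with 1 pair left out. With the length correction 4 were called, CDKN1A and FUCA1 higher and BBC3 and EI24 lower.

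Of 21 tested genes that regulate p53, 4 were called with the block. The ubiquitin ligase RCHY1 (−0.60 ± 0.12, adjusted p = 0.00631), the p53 relative TP73 (−0.53 ± 0.12, adjusted p = 0.0134) and the checkpoint kinase CHEK1 (−0.32 ± 0.09, adjusted p = 0.0326) were lower, and the p53 kinase HIPK2 (0.30 ± 0.07, adjusted p = 0.0139) was higher. With the length correction 7 of the 21 were called, all lower, and HIPK2 was not, where 13.5% of all genes were called lower and 5.08% higher. Of 20 cell cycle genes that p53 lowers through p21 and the DREAM repressor complex, 9 were called. MCM5 (−0.43 ± 0.06, adjusted p = 0.00139), CCNB1 (−0.31 ± 0.06, adjusted p = 0.00614), PLK1 (−0.32 ± 0.07, adjusted p = 0.0102), CCNA2 (−0.31 ± 0.07, adjusted p = 0.0109) and AURKA (−0.29 ± 0.09, adjusted p = 0.0476) were lower. MKI67 (0.29 ± 0.07, adjusted p = 0.0152), TOP2A (0.25 ± 0.06, adjusted p = 0.0168), BUB1 (0.25 ± 0.08, adjusted p = 0.0499) and CENPF (0.20 ± 0.06, adjusted p = 0.0497) were higher, of which CENPF turned to −0.0069 with the length correction. That correction left 5 of the list called lower and 0 higher. MCM5, CCNB1 and PLK1 kept their call with any 1 pair left out, and AURKA, BUB1 and CENPF lost theirs whichever pair was left out, as did CHEK1. The calls of HIPK2, CCNA2, MKI67 and TOP2A were lost in 2 of the 4 such fits, and those of RCHY1 and TP73 in 1.

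The second comparison asked how both marks differed with MS275 at the members. Scaled reads are relative to the reads of each library, so they give a peak's share of the signal and do not measure the total amount of a mark per cell, and lower means a smaller share. Every promoter peak of a member that passed the test had fewer scaled reads with MS275, and the median change was close to that of peaks at coding starts in general. A promoter peak is the peak with the highest mean scaled reads under DMSO within 1 kb of a start of the member, and 34 of 35 members had one (SPATA18 had no peak), where 64.5% of coding genes had a peak at a start. 6 of these peaks also hold the start of another gene (FAS with ACTA2, POLH with XPO5, SESN1 with CEP57L1, TP53INP1 with NDUFAF6, TRIAP1 with GATC and XPC with LSM3). Of the 34, 24 (70.6%) were called lower in H3K18cr and 0 higher, where 55.1% of all peaks at coding starts were called lower and 0.0624% higher. In H3K18ac 16 (47.1%) were lower and 0 higher, against 43.1% and 0.0624%. The sets are unlike, here and below. Member promoter peaks are the 1 peak with the most reads per gene, with a median width of 3150 bases. The peaks at coding starts include every such peak, with a median width of 2550 bases. The median log2 change was −0.53 in H3K18cr and −0.61 in H3K18ac, against −0.54 and −0.60 over all peaks at coding starts and −0.20 and −0.19 over all peaks.

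The scaling set part of the size. With TMM factors computed over the peaks, which moved the median over all peaks to 0.04 and 0.06, 11 promoter peaks were lower in H3K18cr and 18 in H3K18ac, 0 were higher in either, and their medians were −0.30 and −0.36 (peaks at coding starts −0.30 and −0.35). The 3 MS275 libraries all lay below the 3 DMSO libraries at 27 of 34 promoter peaks in H3K18cr, where 61.8% of peaks at coding starts behaved so, and at 21 of 34 in H3K18ac, where 49.9% did. The H3K18cr libraries held scaled reads at 1.70 log2 units over input at the median promoter peak with DMSO, with a range from 0.69 to 2.75.

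**Figure D3:**
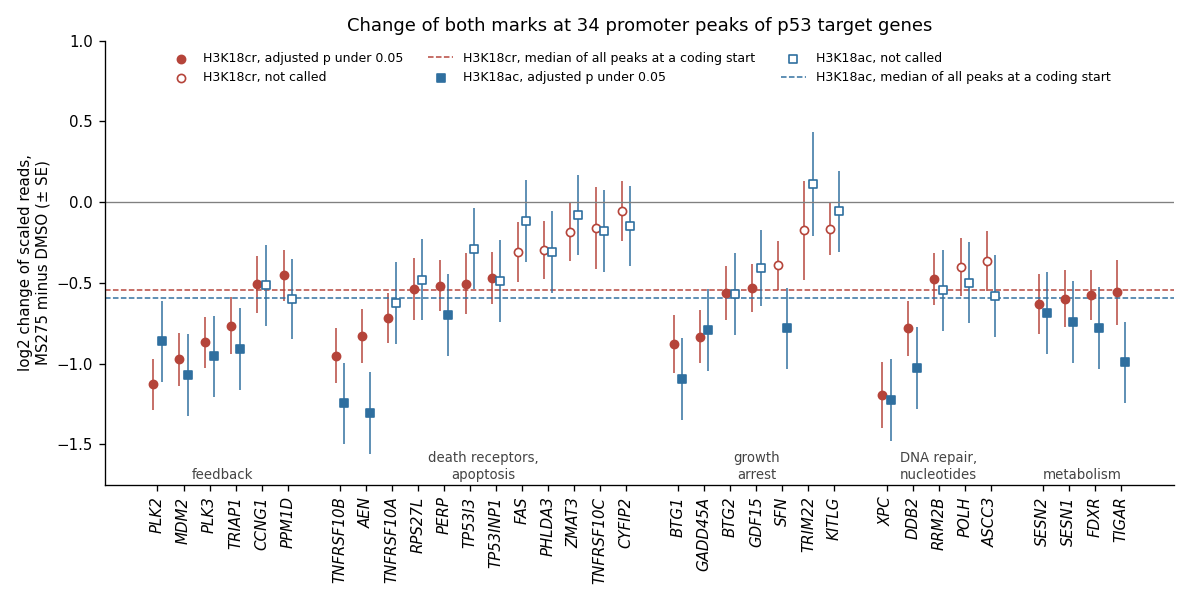
Log2 change of scaled reads (MS275 minus DMSO, ± SE) in H3K18cr and H3K18ac at the 34 promoter peaks of p53 target genes, 3 libraries per treatment and mark. Changes ranged from −1.20 to −0.06 in H3K18cr and from −1.31 to 0.11 in H3K18ac.

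At the feedback regulators all 6 promoter peaks were called lower in H3K18cr and 4 of 6 in H3K18ac. The PLK2 promoter peak lay at chr5:58458301-58462800, over the gene start. H3K18cr at the PLK2 start was 465, 374 and 399 scaled reads with DMSO and 183, 176 and 206 with MS275, and the groups did not overlap (log2 change −1.13 ± 0.16, adjusted p = 2.6e-05). H3K18ac scaled reads there changed by −0.86 on the log2 scale (adjusted p = 0.00739), a call that was lost without DMSO replicate 2, without MS275 replicate 2 or without MS275 replicate 3 (adjusted p 0.0613 to 0.114). The MDM2 promoter peak lay at chr12:68806501-68810100. H3K18cr at the MDM2 start was 343, 362 and 326 scaled reads with DMSO and 162, 157 and 210.4 with MS275, and the groups did not overlap (log2 change −0.97 ± 0.16, adjusted p = 8.4e-05). H3K18ac at the MDM2 start was 276, 373 and 463 scaled reads with DMSO and 204, 160.0 and 158 with MS275, and the groups did not overlap (log2 change −1.07 ± 0.25, adjusted p = 0.000838). So at PLK2 and MDM2 the highest MS275 library stood below the lowest DMSO library. The PLK3 promoter peak lay at chr1:44798101-44804850. H3K18cr at the PLK3 start was 558, 455 and 438 scaled reads with DMSO and 252, 238 and 304 with MS275, and the groups did not overlap (log2 change −0.87 ± 0.16, adjusted p = 0.000184). H3K18ac at the PLK3 start was 381, 442 and 582 scaled reads with DMSO and 287, 213 and 221 with MS275, and the groups did not overlap (log2 change −0.95 ± 0.25, adjusted p = 0.00278). The H3K18ac call was lost without MS275 replicate 2 (adjusted p = 0.0976) and without MS275 replicate 3 (adjusted p = 0.0749). TRIAP1 had log2 changes of −0.76 and −0.91, at a peak shared with the start of GATC and holding the site shown above. Its H3K18ac call was lost without MS275 replicate 2 or without MS275 replicate 3 (adjusted p 0.0621 to 0.111).

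At death receptors and apoptosis genes, 7 of 12 promoter peaks were called lower in H3K18cr and 3 in H3K18ac. The TNFRSF10B promoter peak lay at chr8:23067151-23070300. H3K18cr at the TNFRSF10B start was 408, 412 and 430.0 scaled reads with DMSO and 208, 170.0 and 283 with MS275, and the groups did not overlap (log2 change −0.95 ± 0.17, adjusted p = 0.000148). H3K18ac at the TNFRSF10B start was 397, 496 and 641 scaled reads with DMSO and 226, 208 and 202 with MS275, and the groups did not overlap (log2 change −1.24 ± 0.25, adjusted p = 0.00011). The lowest DMSO library of this TRAIL receptor stood above the highest MS275 library in both marks. The AEN promoter peak lay at chr15:88620451-88622700. H3K18cr at the AEN start was 258, 239 and 212 scaled reads with DMSO and 137, 133 and 128 with MS275, and the groups did not overlap (log2 change −0.83 ± 0.16, adjusted p = 0.00039). H3K18ac at the AEN start was 240.0, 249 and 378 scaled reads with DMSO and 169, 101 and 88 with MS275, and the groups did not overlap (log2 change −1.31 ± 0.25, adjusted p = 6.1e-05). These were the 2 apoptosis genes with the deepest change in H3K18ac, and both calls held in each mark with any 1 library left out. CYFIP2 (−0.06 ± 0.18 in H3K18cr), ZMAT3 (−0.18 ± 0.18), TNFRSF10C, PHLDA3 and FAS were called in neither mark.

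At genes listed under growth arrest, 4 of 7 promoter peaks were called lower in H3K18cr and 3 in H3K18ac. The GADD45A promoter peak lay at chr1:67682701-67688100. H3K18cr at the GADD45A start was 578, 580.1 and 405 scaled reads with DMSO and 264, 326 and 279 with MS275, and the groups did not overlap (log2 change −0.83 ± 0.16, adjusted p = 0.000346). GADD45A links stress signals to growth arrest. Its H3K18ac call (−0.79, adjusted p = 0.0157) had overlapping groups and was lost without DMSO replicate 2, without DMSO replicate 3, without MS275 replicate 2 or without MS275 replicate 3 (adjusted p 0.11 to 0.276). The BTG1 promoter peak lay at chr12:92144251-92146050. H3K18cr at the BTG1 start was 195, 175 and 201 scaled reads with DMSO and 88.9, 96.3 and 129 with MS275, and the groups did not overlap (log2 change −0.88 ± 0.18, adjusted p = 0.000475). H3K18ac at the BTG1 start was 180.0, 187 and 269 scaled reads with DMSO and 116, 80.8 and 99.6 with MS275, and the groups did not overlap (log2 change −1.09 ± 0.25, adjusted p = 0.000625). The H3K18ac call was lost without MS275 replicate 2 (adjusted p = 0.0556). SFN was the only member called in H3K18ac (−0.78, adjusted p = 0.0152) and not in H3K18cr (−0.39, adjusted p = 0.0617). The difference between its changes was 0.39 ± 0.29 (adjusted p = 1.00). The H3K18ac call of SFN was lost without DMSO replicate 2, without DMSO replicate 3, without MS275 replicate 2 or without MS275 replicate 3 (adjusted p 0.0818 to 0.228). KITLG and TRIM22 were called in neither mark.

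At genes of DNA repair and nucleotide supply, 3 of 5 promoter peaks were called lower in H3K18cr and 2 in H3K18ac. The XPC promoter peak at chr3:14177251-14179950 also holds the start of LSM3, so its reads cannot be given to 1 gene. H3K18cr at the XPC start was 192, 209 and 246 scaled reads with DMSO and 108, 60.9 and 125 with MS275, and the groups did not overlap (log2 change −1.20 ± 0.20, adjusted p = 9.7e-05). H3K18ac at the XPC start was 228, 288 and 426 scaled reads with DMSO and 129, 140.2 and 122 with MS275, and the groups did not overlap (log2 change −1.22 ± 0.25, adjusted p = 0.000152). All MS275 libraries of both marks lay below the DMSO libraries at this shared start. The DDB2 promoter peak lay at chr11:47213551-47217150 and holds the site with 0 mismatches. H3K18ac at the DDB2 start was 226, 268 and 418 scaled reads with DMSO and 193, 117 and 132 with MS275, and the groups did not overlap (log2 change −1.03 ± 0.25, adjusted p = 0.00137). The H3K18ac call was lost without MS275 replicate 2 (adjusted p = 0.0903) and without MS275 replicate 3 (adjusted p = 0.051). H3K18cr there changed by −0.78 ± 0.17 (adjusted p = 0.00105). POLH and ASCC3 were called in neither mark.

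At genes of metabolism, redox and mitochondria, all 4 promoter peaks (SESN1, SESN2, TIGAR and FDXR) were called lower in both marks, where 4979 of 12833 peaks at coding starts were called in both. The H3K18ac calls of SESN1, SESN2 and FDXR were each lost without DMSO replicate 2 or 3 or MS275 replicate 2 or 3 (with overlapping groups at SESN1 and highest adjusted p 0.283, 0.337 and 0.202), and their H3K18cr calls in 2, 4 and 2 of the 6 fits with 1 library left out, each time including DMSO replicate 1 (adjusted p up to 0.143, 0.129 and 0.057). The TIGAR promoter peak lay at chr12:4320151-4322100, with the site of 0 mismatches inside it. H3K18ac at the TIGAR start was 115, 173 and 205 scaled reads with DMSO and 97.4, 77.5 and 69.2 with MS275, and the groups did not overlap (log2 change −0.99 ± 0.25, adjusted p = 0.0019). The H3K18ac call was lost without MS275 replicate 3 (adjusted p = 0.0685). H3K18cr there was 118, 117 and 95.9 scaled reads with DMSO and 82.1, 53.8 and 94 with MS275 (log2 change −0.56, adjusted p = 0.0417), a call lost without DMSO replicate 1, without DMSO replicate 2, without MS275 replicate 1 or without MS275 replicate 2 (adjusted p 0.0659 to 0.377). With TMM factors all 4 stayed called in H3K18ac and 0 of 4 in H3K18cr.

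Across the members, 15 promoter peaks were called lower in both marks, 9 in H3K18cr only, 1 in H3K18ac only and 9 in neither. Over all 12833 peaks at coding starts, 4979 were called in both marks, 7067 in H3K18cr and 5536 in H3K18ac. The difference itself was tested separately. The interaction of mark and treatment called 0 of 40266 peaks (0.0%) by limma, with 739 at an unadjusted p under 0.05, and 0 of the 58 member peaks had an unadjusted p under 0.05. At the 34 promoter peaks the H3K18cr change minus the H3K18ac change ranged from −0.29 to 0.48 with standard errors of 0.27 to 0.46. Differences within these errors were not detectable with 3 libraries per group. In H3K18cr 11 of the 24 calls held with any 1 of the 6 libraries left out, and in H3K18ac 4 of the 16.

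**Figure D4:**
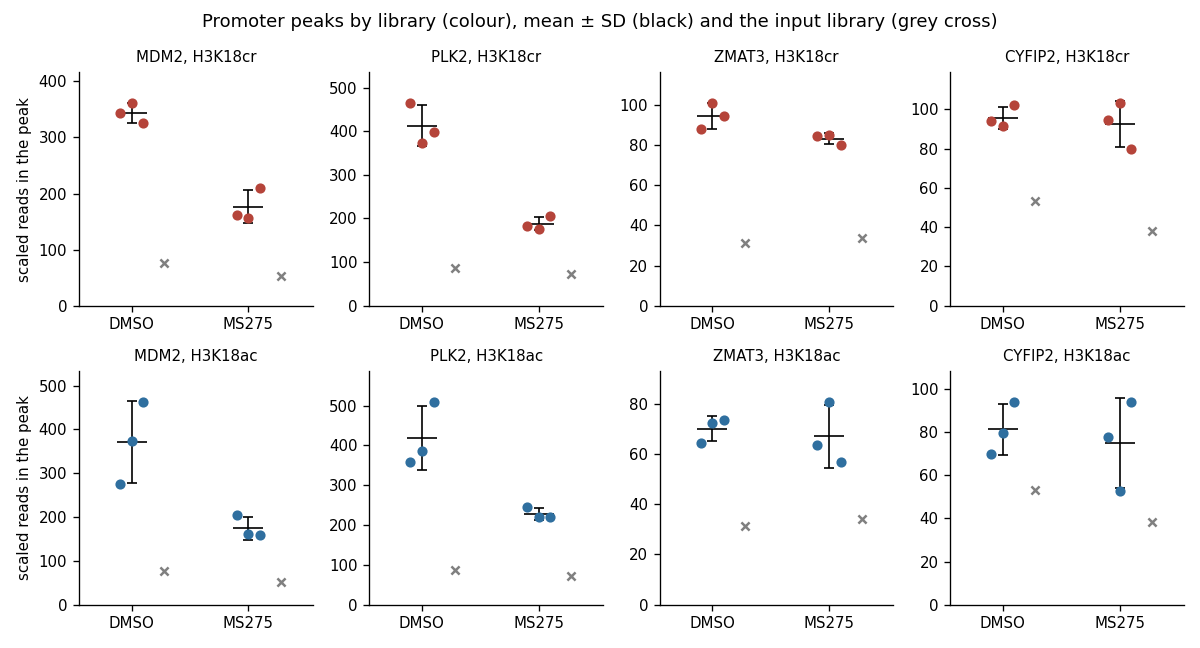
Scaled reads in the promoter peak of named members, H3K18cr and H3K18ac, by library (coloured points), with mean ± SD (black) and the input library of the treatment (grey cross), on a linear axis from 0. At PLK2 the H3K18cr libraries with MS275 lie at 176 to 206, all below the DMSO libraries at 374 to 465.

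Of the 58 member peaks, 29 were called lower in H3K18cr and 20 in H3K18ac, and 0 higher in either, where 23.0% and 16.3% of all peaks were lower and 0.232% and 0.264% higher. With TMM factors 3 were higher and 15 lower in H3K18cr, and 2 higher and 23 lower in H3K18ac, while over all peaks 712 were then higher and 4448 lower in H3K18cr and 1803 higher and 6627 lower in H3K18ac. Of the 22 away from a start of the member, 5 were lower in H3K18cr and 4 in H3K18ac, where 7.91% and 3.68% of all peaks away from a coding start were. The deepest was inside XPC, 32401 bases from its start at chr3:14142451-14146200, with mean scaled reads of 326 with DMSO and 136 with MS275 in H3K18cr (log2 change −1.29 ± 0.18, adjusted p = 2.6e-05). In H3K18ac it changed by −1.07 ± 0.25. Both TP53I3 peaks called and the second PLK3 peak lie at starts of other genes (FAM228B and SF3B6, and BTBD19 and DYNLT4), and the fifth peak, in ASCC3, was called in H3K18cr only. KITLG, with 5 peaks the member with the most, had log2 changes above 0 in both marks at 3 peaks away from its start, of which 0 were called. The peak at chr12:88553401-88557600, 22869 bases from the KITLG start, had log2 changes of 0.41 in H3K18cr (adjusted p = 0.0964) and 0.38 in H3K18ac (adjusted p = 0.361). With TMM factors it was called higher in both (0.65 and 0.63), as was its neighbour at chr12:88548301-88551600 (0.54 and 0.70), so their call depends on the scaling.

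Set beside the RNA, the median promoter change was below 0 in both marks for members called higher, called lower and not called. The 4 members with higher RNA had a median H3K18cr log2 change of −0.27, with 1 promoter peak called. That peak, of PERP, lost its call without DMSO replicate 2, without MS275 replicate 1 or without MS275 replicate 2 (adjusted p 0.0739 to 0.129). The 4 with lower RNA had −0.61, with 3 called, and the 25 not called in RNA had −0.56, with 20 called. Among the 3, TP53I3 kept its call in 1 of the 6 fits with 1 library left out (adjusted p up to 0.219 in the others). In H3K18ac the medians were −0.36, −0.70 and −0.69. MDM2 and TNFRSF10B, with log2 changes of −0.97 and −0.95 in H3K18cr, had RNA changes of −0.07 and −0.01. With 4 members in each called group these values are a description.

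The third set of libraries shows where the members stand in untreated mouse colon epithelium, with 1 condition and hence no test. Nearly all were detected: 30 of the 31 members in the table reached a mean of 1 CPM, and Spata18 had 0 counts in all 3 libraries. Tigar is listed there under its clone name 9630033F20Rik, and 4 members (TP53I3, TNFRSF10A, TNFRSF10C and TRIM22) had no row matched by name. H3K18cr was present at 29 of 31 members, 28 of them at a start, where 50.8% of coding genes had an H3K18cr peak at a start. H3K4me3, a mark of active promoters, was present at the start of all 31, where 64.2% of coding genes had one. The 2 without H3K18cr were Cyfip2 and Spata18, and Aen had only a peak at the start of its neighbour Isg20.

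Per kb of exon the highest mean RNA levels (lowest and highest library in parentheses) were those of Sfn at 99.5 (74.7 to 119) CPM per kb, Rps27l at 98.6 (83.2 to 114), Perp at 77.3 (72.2 to 86.4), Triap1 at 39.9 (38.7 to 41.6), Ccng1 at 38.7 (37.8 to 39.3) and Btg2 at 32.3 (26.5 to 35.7). The ranges of Sfn, Rps27l and Perp overlapped. In the 3 libraries Sfn had 169, 192 and 120.5 CPM, Perp 169, 143 and 141 CPM and Rps27l 92.9, 67.9 and 80.6 CPM. Mdm2 had 45.7, 47.6 and 44 CPM. At the low end stood Cyfip2 with 3.06, 3.27 and 6.60 CPM and Fas with 2.20, 3.74 and 3.09 CPM. Sfn, Perp, Ccng1 and Triap1 were among the 6 highest per length in both HCT116 and colon, while Gdf15 stood at 3.15 CPM per kb in colon and Kitl at 24.1. RPS27L stood at 7.09 CPM per kb in HCT116 with DMSO, where its merged exons came to 8825 bases against 816 in mouse. Its place in the HCT116 order therefore depends on the annotated length. The human and mouse tables were not tested against each other.

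The 5 H3K18cr promoter peaks with the most reads in colon (GRCm38) were those of Plk3, Sfn, Perp, Btg1 and Gdf15. Plk3 at chr4:117133051-117138600 had 407 and 696 scaled reads in the 2 H3K18cr libraries and 120 and 195 in their inputs. Sfn at chr4:133597651-133602000 had 345 and 739 scaled reads in the 2 H3K18cr libraries and 120 and 153 in their inputs. Perp at chr10:18843601-18847350 had 361 and 632 scaled reads in the 2 H3K18cr libraries and 124 and 145 in their inputs. In each of these the second library held more reads than the first, as it did over all peaks (5595950 against 3482710), and both were above input. Btg1 at chr10:96616051-96618600 had 232 and 441 scaled reads in the 2 H3K18cr libraries and 80.0 and 102 in their inputs. Gdf15 at chr8:70629451-70632750 had 215 and 332 scaled reads in the 2 H3K18cr libraries and 96 and 121 in their inputs. These peaks differ in width, from 2550 bases at Btg1 to 5550 at Plk3, and per kb the order was another, led by Perp (132 scaled reads per kb, mean of the 2 libraries), Btg1 (132), Mdm2 (126), Sfn (125) and Ascc3 (122), with Plk3 at 99.3. Over the 42 member peaks the median log2 ratio to input was 1.35 and 1.56 in the 2 libraries, against 1.17 and 1.48 over all 30338 peaks.

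The H3K4me3 levels followed another order. Btg1 had 393, 615 and 750.3 scaled reads at its start in the 3 libraries against 55 in the single input. Sfn, among the 3 highest in RNA per length, had 20.7, 18.7 and 38.6 in its peak at the start (input 15), while a second peak 1368 bases away at chr4:133599301-133600800 had 106, 163 and 201 (input 26). Over the 46 member peaks the median log2 ratio of H3K4me3 to input was 2.35, against 1.70 over all 27035 peaks.

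**Figure D5:**
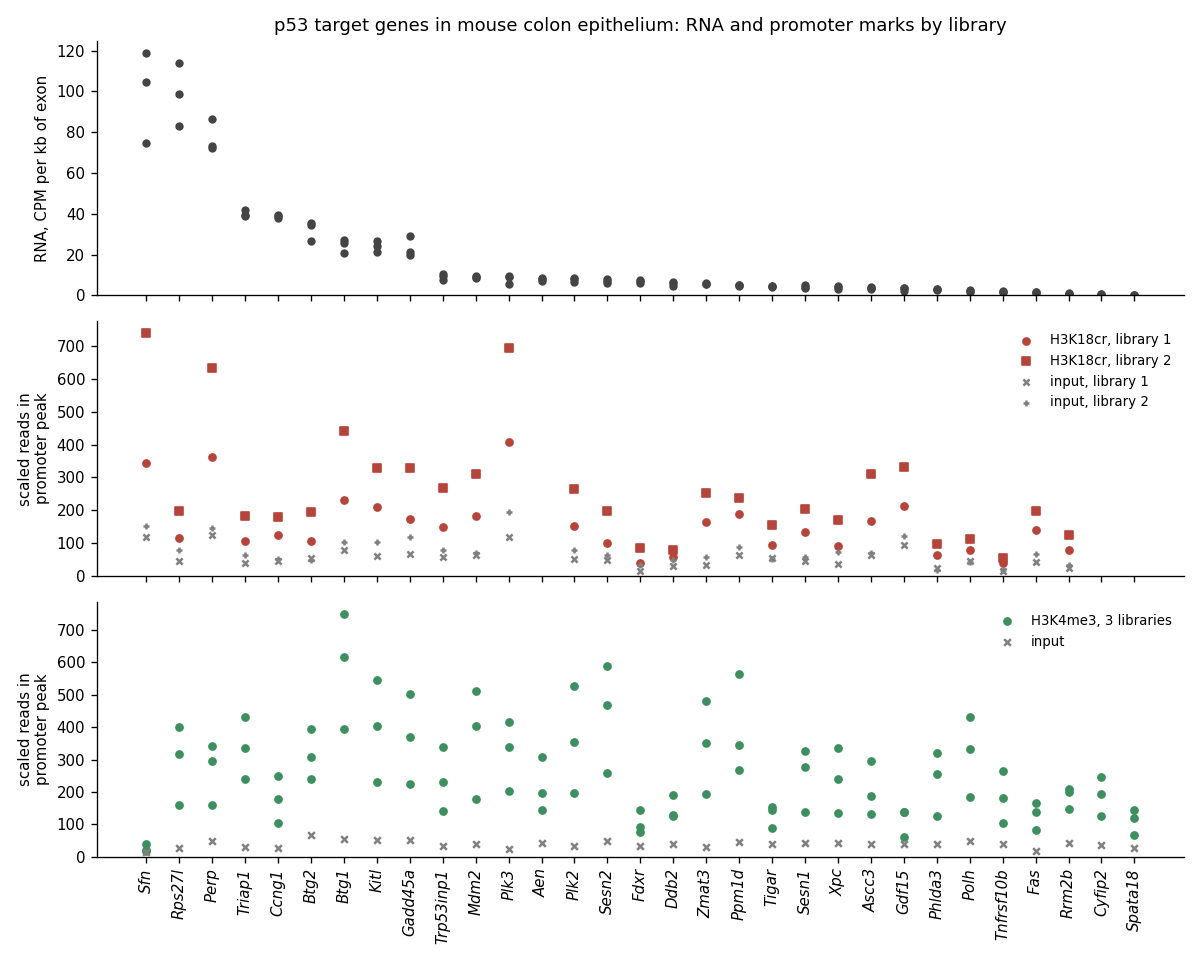
RNA (CPM per kb of exon), H3K18cr and H3K4me3 (scaled reads in the promoter peak) of the p53 target genes in mouse colon epithelium, 1 point per library, with linear axes from 0. Sfn, Rps27l and Perp lead in RNA at 99.5, 98.6 and 77.3 CPM per kb, and Plk3, Sfn and Perp have the most H3K18cr reads per peak, where peaks differ in width.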

How the data were processed

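The 33 libraries were grouped by the labels of the series. HCT116 and colon RNA tables hold raw counts per gene as the authors deposited them; Trim Galore, HiSat2 and SEQMONK are stated for mouse only, and use of strand in counting was not given in the sources used here (the library kit was directional), so reads of overlapping and antisense genes cannot be told apart. For ChIP-seq the authors trimmed reads, mapped them with Bowtie2 (2.2.5 in the submitters' processing notes) to GRCh38 or GRCm38, removed duplicates and called 1 MACS peak list per table in SEQMONK. The colon tables hold the deposited signal per peak (reads multiplied by 1 factor per library), and the HCT116 table holds the deposited log2 of such values, with 0.9 read in place of 0.

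Counts were tested with edgeR 4.0.16 (quasi-likelihood, TMM, filterByExpr; the SE is the log2 change divided by the root of F), and log2 values with limma 3.58.1 (trend) in peaks with at least 10 scaled reads in at least 3 libraries, in R 4.3.3. Adjusted p-values are Benjamini-Hochberg over all features tested, called under 0.05. Alternatives were DESeq2 1.42.0, other scalings and filters, the replicate block and each library left out. The length correction, chosen after seeing the data, smoothed each library's log2 deviation on exon length (loess span 0.5; 83.8% of 14961 genes had a length; GENCODE 44). Exon length merged the exons of all annotated transcripts of a gene, which can exceed the length of any 1 transcript. Ratios to input used a pseudocount of 1. Peaks were assigned by the gene intervals of the deposited RNA tables.

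RNA libraries of the same number correlated in their deviations from group means at 0.226, 0.151, 0.433 and 0.460. Of unlike numbers, DMSO replicate 2 with MS275 replicate 4 had 0.239, and DMSO replicate 4 with MS275 replicate 2 had 0.219. Both exceed the value of number 2, while the other unlike numbers gave −0.418 to −0.0096. The numbers were taken to pair the libraries, although the labels name no shared culture or day. On simulated HCT116 RNA counts with 200 changed genes of 14860, edgeR recovered 39 without the block and 195 with it. The simulation gave libraries of the same number a shared effect, so a gain from the block was built in. It therefore cannot show whether the real libraries are paired. The changed genes had a median estimated log2 change of 1.00 in size, larger than that of any tested member. Simulated H3K18cr peaks gave 186 of 200 by limma. Members and gene lists were chosen with earlier results of these data known. Given in full were members called with or without the block, then the 3 most abundant others, at each HCT116 mark up to 8 called promoter peaks by rising p, and in colon the 5 promoter peaks with the most reads. Of the other lists, CDKN1A, BBC3 and called genes are named. Other members named, such as MDM2 or KITLG peaks, were chosen after their values were seen. Some items of these lists are not reported here.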

Additional observations from a re-analysis of the deposited data

Results flagged for a closer look

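Among 66 sets of 4 libraries (33 tested members by 2 treatments), 3 held 1 library far from the others, by a gap that passed Dixon's test for an outlier. Chance alone gives about 1 such set in 20. TRIAP1 had 52.4 CPM in MS275 replicate 3, against 27.5 to 31.2 CPM in the other MS275 libraries. TNFRSF10C had 0.781 CPM in DMSO replicate 1, against 2.88 to 3.18 CPM in the other DMSO libraries. DDB2 had 51.9 CPM in DMSO replicate 3, against 41.8 to 43.4 CPM in the other DMSO libraries.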

How the results depend on the processing

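The RNA count of called members was 0 without a block under every scaling, filter and tool tried. It was 8 with the replicate block, 8 in DESeq2 with the block and 8 with block and length correction, and 2 to 8 with 1 pair left out under the block (the cause was not tested). The length correction was chosen after seeing the data. It turned CENPF to −0.0069, and 5 of the 8 calls of the block remained. With 1 library left out and no block, KITLG ranged from −0.26 to 0.23, CCNG1 from −0.31 to 0.0503 and BUB1 from −0.0336 to 0.44. Member peaks called in H3K18cr (29, all lower) fell to 18 under TMM scaling (15 lower and 3 higher) and ranged from 16 to 33 with 1 library left out. Under TMM scaling H3K18ac had 23 lower and 2 higher. Member peaks called in H3K18ac (20) fell to 4 with the replicate block and ranged from 6 to 26 with 1 library left out (11 without DMSO replicate 2, 6 without MS275 replicate 2, 7 without MS275 replicate 3). ChIP libraries of the same number correlated at 0.108, 0.073 and 0.229 in H3K18cr and at −0.207, 0.046 and −0.134 in H3K18ac, so they share only a number; the block gave 30 calls in H3K18cr. The 8 H3K18cr promoter peaks of members with the lowest p kept their call in all alternatives run, and other named ones did not. The colon counts and the median ratio to input moved within their spread. The H3K18ac SE at promoter peaks was 0.237 to 0.324, and the part of read depth in it was not tested.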
